A study of Danio rerio with 13 samples.

Results

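Oxidative phosphorylation is carried out by a set of protein complexes of the inner mitochondrial membrane, and the genes of their subunits are divided between the nucleus and the mitochondrial genome. The nuclear subunit genes were examined in zebrafish skin. Members were chosen by gene symbol alone, as rows of the count table whose symbol begins with ndufa, ndufb, ndufc, ndufs or ndufv (complex I), is sdha, sdhb, sdhc or sdhd (complex II), or begins with uqcr (complex III), cox4 to cox8 (complex IV) or atp5 (complex V), with the assembly factors ndufaf and sdhaf left out. This rule found 93 of 32105 rows, with 42 in complex I, 5 in complex II, 8 in complex III, 18 in complex IV and 20 in complex V. The 3 symbols sdhd, cox5b and cox6a1 each stood for 2 rows, which are told apart here by their Ensembl identifiers.

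The skin of male AB zebrafish aged 3 months was sequenced in 13 samples: 3 homozygous mutants (HOM, tert(-/-)), 5 heterozygous mutants (HET, tert(+/-)) and 5 wild types (WT). The gene tert encodes the protein part of telomerase, the enzyme that lengthens chromosome ends. The comparisons ask what the loss of 1 or both functional copies of tert does to expression in a tissue of a young adult fish. Replicate numbers only name the libraries. The paper lists 5 wild-type, 5 heterozygous and 3 homozygous fish, the same numbers as the libraries here. No source used here ties each library to a separately named fish. The p-values therefore measure the spread between these samples, which may be partly technical.

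Total counts per library ran from 15709310 in HOM3 to 30249877 in HET4, and the members took between 0.538% (HET1) and 2.79% (HET5) of them. The transcript of tert (ENSDARG00000042637) was present at 15.69 to 37.3 CPM (counts scaled to library size) in HOM, 14.5 to 40.4 CPM in HET and 7.08 to 13.4 CPM in WT, and an RNA that is still made does not check the genotype labels. Of 25 keratinocyte markers, genes of the main cell type of epidermis, 0 were at 0 in every library, and their summed level ran from 9864 CPM (WT5) to 39989 CPM (WT3). WT5 stood apart with the lowest keratinocyte sum and with 29553 CPM of 13 liver markers, against 36.2 to 3698 CPM in the other 12 libraries. The main comparisons are therefore also given without WT5 and without HET4 and HET5, the pair in which the members were highest. In whole tissue, fewer cells of a type and less RNA per cell cannot be told apart.

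Complex I takes electrons from NADH and complex II, the succinate dehydrogenase of the citric acid cycle, takes them from succinate. Both pass them through ubiquinone to complex III and from there, through cytochrome c, to complex IV, which reduces oxygen. The protons pumped by complexes I, III and IV drive complex V, the ATP synthase. All subunits of complex II are nuclear, whereas each other complex also needs subunits made from the mitochondrial genome. Several complex IV subunits exist in mammals as pairs of genes, one used widely and the other in heart and skeletal muscle.

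Per gene length, the subunits of complex V were the most abundant. Levels between genes were compared as RPKM (counts scaled to gene length and library size), recomputed from the counts with each library's own total. The median of the mean RPKM over the 13 libraries was 187 for complex V, 115 for complex IV, 67.4 for complex III, 61.6 for the 41 tested members of complex I and 49.5 for complex II. The catalytic beta subunit of ATP synthase, atp5f1b (ENSDARG00000070083), led all members with 566 ± 380 RPKM (SD, n = 13). It was followed by cox4i1 (ENSDARG00000032970), the widely used form of subunit 4 of complex IV, with 533 ± 324 RPKM (SD, n = 13), and by atp5mc3b (ENSDARG00000009447), a gene of the membrane ring of ATP synthase, with 483 ± 288 RPKM (SD, n = 13). The libraries thus differed widely even for the most abundant members. At the other end, ndufa9b had a mean of 1.09 RPKM and sdhd (ENSDARG00000055712) one of 0.338 RPKM with 0 to 13 counts per library. The row ndufa4l2b had 0 or 1 counts in every library and was the 1 member that did not pass the filter on low counts, which left 92 members for the tests.

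The members rose and fell across libraries largely as a single block, and the libraries in which that block was highest and lowest were of the same genotype. For each library, the members' log2 CPM, each set against that gene's own mean over the 13 libraries, averaged -0.65, 0.16 and -0.02 in HOM1 to HOM3. In HET1 to HET5 these averages were -0.93, -0.53, 0.08, 1.05 and 1.52, and in WT1 to WT5 they were -0.15, 0.01, -0.57, -0.80 and 0.80. The extremes, HET5 and HET1, were thus both HET, and the ranges of the 3 genotypes overlapped. HET5 was the highest library for 85 of 92 members (92.4%), against 13.9% of the 19141 genes tested, and HET4 was the second highest for 70 members. WT5 was second for another 16. The lowest library was HET1 for 59 members, WT4 for 18 and HOM1 for 9. The order of the HOM libraries depended on the scaling. Summed over all members they had 6337.5, 10739 and 9514.5 CPM in HOM1 to HOM3. With no scaling factors these sums were 9080, 8410 and 7318.5 CPM.

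**Figure D1:**
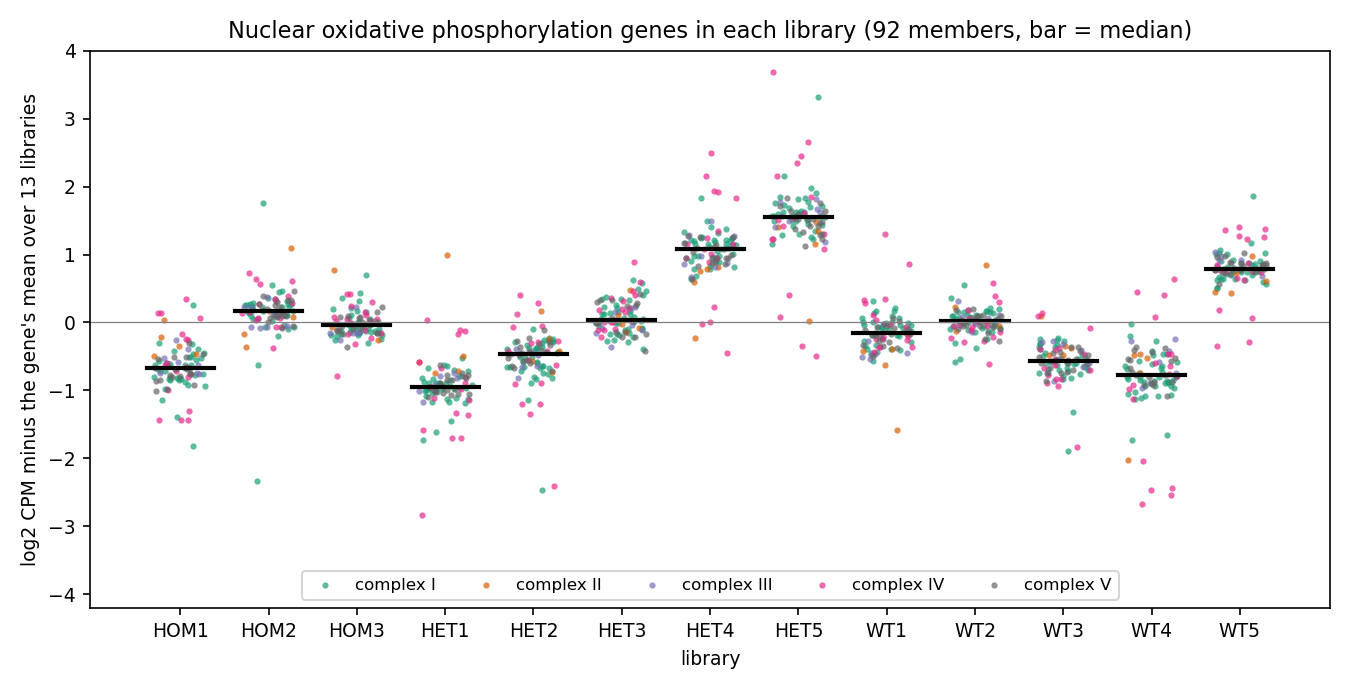
Log2 CPM of each of 92 nuclear oxidative phosphorylation genes minus that gene's mean over 13 libraries (y axis, log2 units), by library (x axis: 3 HOM, 5 HET, 5 WT). Points are genes coloured by complex and bars are medians over genes. The block sits highest in HET5 and HET4, then in WT5, and lowest in HET1, while a few complex IV genes leave the block in each of these libraries.

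The agreement among members was close. Over the 13 libraries, the Spearman correlation of a member with the mean of the other members had a median of 0.948, and it reached 0.9 in 69 of 92 members. These correlations describe 13 libraries scaled together, whose marker levels of other cell types also differed. The members most like the rest were ndufb11, an accessory subunit of the membrane arm of complex I, with a correlation of 1.0, and uqcrq of complex III, cox5aa of complex IV and atp5mc3b with 0.995 each. The SD of log2 CPM over the libraries had a median of 0.77 for the members, beside 0.58 for all genes tested. By complex it was 0.79 (I), 0.59 (II), 0.77 (III), 0.75 (IV) and 0.74 (V).

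Complex I, with 42 members, summed to 1477, 2570 and 2256 CPM in HOM1 to HOM3. In HET1 to HET5 it summed to 1222, 1619, 2377, 4938 and 7026 CPM, and in WT1 to WT5 to 2130, 2398, 1619, 1382 and 4060 CPM. The means were 2101 ± 562 CPM in HOM (SD, n = 3), 3436 ± 2473 CPM in HET (SD, n = 5) and 2318 ± 1054 CPM in WT (SD, n = 5), so that the ranges of all 3 genotypes overlapped. Its most abundant member by symbol was ndufa4 (ENSDARG00000099499) with 438 RPKM, whose mammalian protein is found in complex IV. Next came ndufb9 (ENSDARG00000041314), an accessory subunit of the membrane arm, with 124 RPKM. The accessory subunit ndufa8 (ENSDARG00000058041), which lies on the intermembrane side in mammals, had 16.5, 28.1 and 48.2 CPM in HOM, 23.3, 34.4, 50.3, 109 and 172 CPM in HET, and 42.9, 55.6, 36.5, 13.1 and 97.6 CPM in WT. Its HOM libraries lay within the WT range, and only HET4 and HET5 exceeded WT5. The iron-sulphur subunit ndufv2 (ENSDARG00000013044), part of the module that binds NADH, had 25.1, 54.8 and 45.4 CPM in HOM and 25.2, 37.6, 52.7, 130 and 147 CPM in HET, whereas WT libraries had 46.8, 52.7, 38.8, 25.9 and 76.4 CPM. Again HET4 and HET5 stood above every other library.

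Complex II varied least, with the highest library at 3.9 times the lowest, against 5.6 to 5.9 times in the other complexes. Its 5 members summed to 263, 265 and 268 CPM in HOM1 to HOM3, to 193, 255, 283, 476 and 749 CPM in HET1 to HET5, and to 222, 311, 223, 201 and 435 CPM in WT1 to WT5. The means were 265 ± 2.45 CPM in HOM (SD, n = 3), 391 ± 226 CPM in HET (SD, n = 5) and 278 ± 97 CPM in WT (SD, n = 5). The 3 HOM libraries lay inside the range of both other genotypes. How close they were together depended on the scaling, since they summed to 376, 208 and 206 CPM with no scaling factors. With no scaling factors and mitochondrial genes also left out of the totals they summed to 470, 394 and 472 CPM. The iron-sulphur subunit sdhb (ENSDARG00000075768) was the most abundant member (61.3 RPKM), and the membrane anchor sdhc (ENSDARG00000038608) followed (49.6 RPKM). In HOM, sdhb had 59.4, 61.5 and 68.3 CPM, in HET 49.1, 78.0, 62.9, 119 and 154 CPM, and in WT 51.7, 69.9, 53.5, 41.0 and 92.9 CPM.

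For complex III, the 8 members summed to 497, 770 and 677 CPM in HOM1 to HOM3, to 389, 502, 694, 1393 and 2163 CPM in HET1 to HET5, and to 539, 734, 499, 485 and 1318 CPM in WT1 to WT5 (means 648 ± 139, 1028 ± 745 and 715 ± 352 CPM in HOM, HET and WT, SD, n = 3, 5 and 5). The small subunit uqcr10 (ENSDARG00000104517) was the most abundant (221 RPKM), ahead of the Rieske iron-sulphur protein uqcrfs1 (ENSDARG00000007745), which hands electrons on towards cytochrome c (127 RPKM). The core protein gene uqcrc2a was the least abundant (10.8 RPKM) and gave 13.3% to 19.0% of the RPKM of the uqcrc2 pair. The ubiquinone-binding subunit uqcrb (ENSDARG00000011146) had 7.999, 12.8 and 11.3 CPM in HOM, 5.95, 8.50, 13.2, 38.02 and 47.9 CPM in HET, and 13.3, 14.2, 11.1, 6.91 and 23.98 CPM in WT. The HOM and HET ranges overlapped, with HET4 and HET5 far above all HOM libraries.

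Complex V carried the largest sums, with 2943, 5044 and 4503 CPM in HOM1 to HOM3, 2364, 3282, 4520, 9262 and 13896 CPM in HET1 to HET5, and 3967, 4726, 3245, 2945 and 7999 CPM in WT1 to WT5 (means 4163 ± 1091, 6665 ± 4837 and 4576 ± 2033 CPM in HOM, HET and WT, SD, n = 3, 5 and 5). The gene atp5f1b alone gave 9.53% of all member counts and the alpha subunit atp5f1a another 6.56%. In HOM, atp5f1b had 628, 967 and 854 CPM, in HET 435, 572, 810, 1760 and 3226 CPM, and in WT 724, 977, 709, 637 and 1552 CPM. The 3 genes of the proton-conducting c subunit, which in mammals encode the same mature protein, kept close to their shares of the family's RPKM in every library. These shares ran from 52.5% to 68.5% for atp5mc3b, from 23.7% to 36.7% for atp5mc1 and from 6.74% to 10.7% for atp5mc3. The inhibitor of ATP hydrolysis had 2 genes, of which atp5if1a (ENSDARG00000067975) had 16.5, 33.5 and 25.9 CPM in HOM, 20.0, 28.4, 42.0, 64.5 and 72.9 CPM in HET, and 34.96, 38.5, 22.8, 20.2 and 65.4 CPM in WT. All 3 HOM values lay inside the WT range or below it, and 1 of them (HOM1) was the lowest of all 13 libraries. That place depended on the scaling, since 711 of 30017549 counts in HOM1 were atp5if1a, against 313 of 15709310 in HOM3.

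The HET means without HET4 and HET5 were 1739 ± 586 CPM for complex I, 243 ± 45.9 CPM for complex II, 528 ± 154 CPM for complex III, 1432 ± 519 CPM for complex IV and 3388 ± 1082 CPM for complex V (SD, n = 3).

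**Figure D2:**
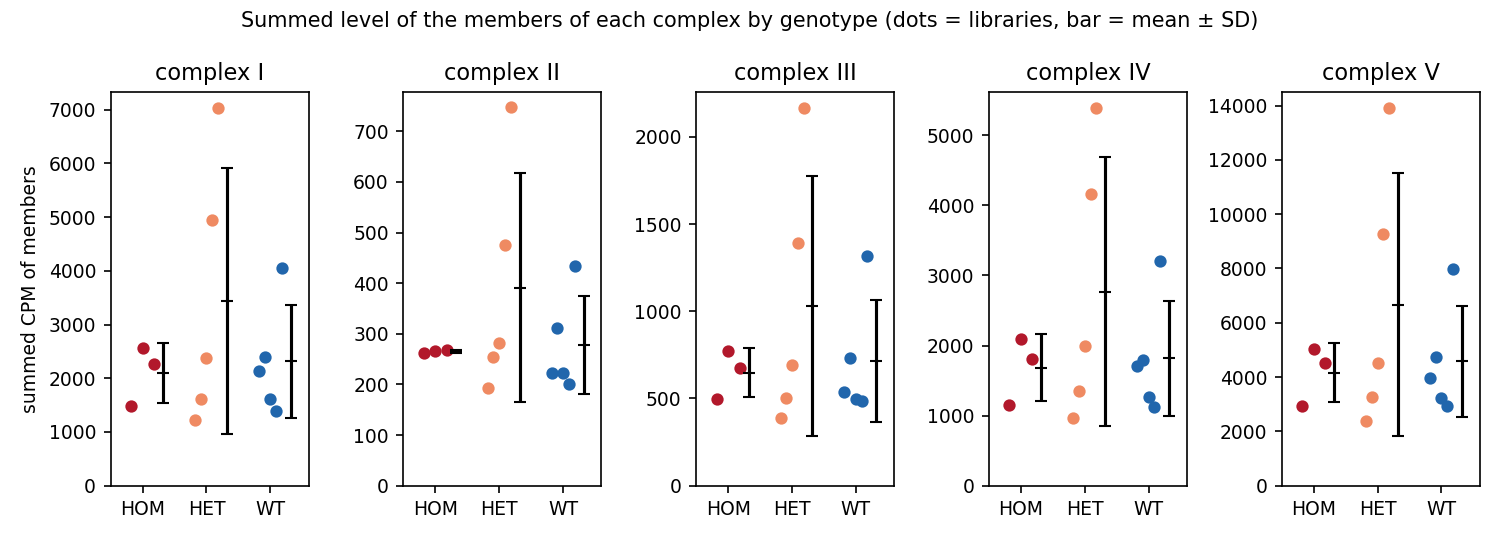
Summed CPM of the members of each complex (y axes, from 0, separate scale per complex) in HOM (n = 3), HET (n = 5) and WT (n = 5). Dots are libraries and bars the mean ± SD. In every complex the HET libraries span the HOM range, and the 2 highest dots are HET4 and HET5.

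Complex IV summed to 1157, 2089 and 1811 CPM in HOM1 to HOM3, to 961, 1347, 1988, 4167 and 5392 CPM in HET1 to HET5, and to 1708, 1790, 1267, 1130 and 3200 CPM in WT1 to WT5 (means 1686 ± 478, 2771 ± 1919 and 1819 ± 822 CPM in HOM, HET and WT, SD, n = 3, 5 and 5). It held both the most and the least variable members. The 5 members with the largest SD of log2 CPM were cox4i1l (1.97), ndufa4b (1.71), cox6a1 (ENSDARG00000054588; 1.53), cox8b (1.48) and cox5b (ENSDARG00000068738; 1.42), of which 4 carry complex IV symbols. The members least like the rest were a second cox5b row (ENSDARG00000015978), a second cox6a1 row (ENSDARG00000022438) and cox8a, with correlations of -0.58, -0.34 and -0.10, followed by sdhd (ENSDARG00000055712) with 0.23 and cox4i2 with 0.49. For the subunits 5b, 6a and 8, therefore, one gene moved far more than the block and its partner hardly moved.

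The pair for subunit 8 shows this most plainly. In mammals COX8A is the widely used form, and COX8B is a muscle form in rodents. Zebrafish cox8b (ENSDARG00000097209) had 39.4, 144 and 121 CPM in HOM, 30.1, 38.2, 130, 374 and 496 CPM in HET, and 178, 99.5, 51.3, 16.8 and 252 CPM in WT. Its partner cox8a (ENSDARG00000095273) had 74.2, 64.4 and 72.9 CPM in HOM, 59.5, 82.3, 74.8, 78.6 and 71.2 CPM in HET, and 49.5, 44.0, 63.8, 105 and 54.9 CPM in WT. Between the lowest and highest library, cox8b differed 29.6-fold and cox8a 2.38-fold. The share of cox8b in the RPKM of the pair was accordingly 13.8% in WT4 and 87.4% in HET5.

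Both cox6a1 rows repeated that split. The row ENSDARG00000054588 had 26.7, 89.8 and 85.7 CPM in HOM, 24.1, 31.5, 67.3, 323 and 458 CPM in HET, and 91.1, 109, 44.4, 11.3 and 192 CPM in WT. The row ENSDARG00000022438 had 80.8, 75.4 and 74.5 CPM in HOM, 67.1, 79.6, 68.7, 72.1 and 57.7 CPM in HET, and 62.0, 62.7, 78.1, 99.9 and 82.9 CPM in WT, the smallest SD of any member (0.21). The first row gave 14.6% of the RPKM of the pair in WT4 and 92.3% in HET5. For cox5b, the row ENSDARG00000068738 had 28.7, 103 and 104 CPM in HOM, 23.8, 41.9, 89.5, 277 and 428 CPM in HET, and 99.7, 96.4, 43.8, 14.4 and 201 CPM in WT. The row ENSDARG00000015978 had 89.4, 73.5 and 74.2 CPM in HOM, 65.2, 93.3, 70.8, 70.9 and 49.7 CPM in HET, and 59.3, 58.1, 77.6, 92.9 and 55.1 CPM in WT. Here the first row gave 15.8% of the RPKM of the pair in WT4 and 91.2% in HET5. How reads that match both genes of a pair were counted is not given in the sources used here, and reads shared between near-identical copies would make the 2 values less certain.

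In the other complex IV families, cox4i1l (ENSDARG00000012388) was a minor gene with 0.63% (HET2) to 10.02% (HET5) of the cox4 RPKM, but it had the widest spread of all, with 10.6, 19.8 and 6.87 CPM in HOM, 1.61, 2.185, 22.2, 67.9 and 155 CPM in HET, and 29.5, 9.77, 3.28, 2.845 and 28.1 CPM in WT. The form cox4i2 (ENSDARG00000022509), whose mammalian counterpart is known from lung and from cells at low oxygen, stayed between 3.25 CPM (WT4) and 10.19 CPM (HOM2). For cox7a1 (ENSDARG00000069464), whose mammalian counterpart is the heart and skeletal muscle form of subunit 7a, the levels were 22.6, 93.8 and 63.7 CPM in HOM, 24.3, 26.7, 93.1, 234 and 274 CPM in HET, and 75.2, 80.4, 34.4, 11.1 and 148 CPM in WT, or 9.31% (WT4) to 42.6% (HET4) of the cox7a RPKM. By contrast, cox6b1 kept 18.9% to 33.4% of the RPKM of its pair and cox5a 17.8% to 29.4%. The correlation with the mean of the other members was 0.92 for cox5a, 0.995 for cox5aa and 0.99 for cox6b2. That of cox6b1 was lower, at 0.76. In WT4, where the block was low, cox6b1 had 37.8 CPM, against 34.1, 30.9, 22.5 and 60.5 CPM in WT1, WT2, WT3 and WT5.

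**Figure D3:**
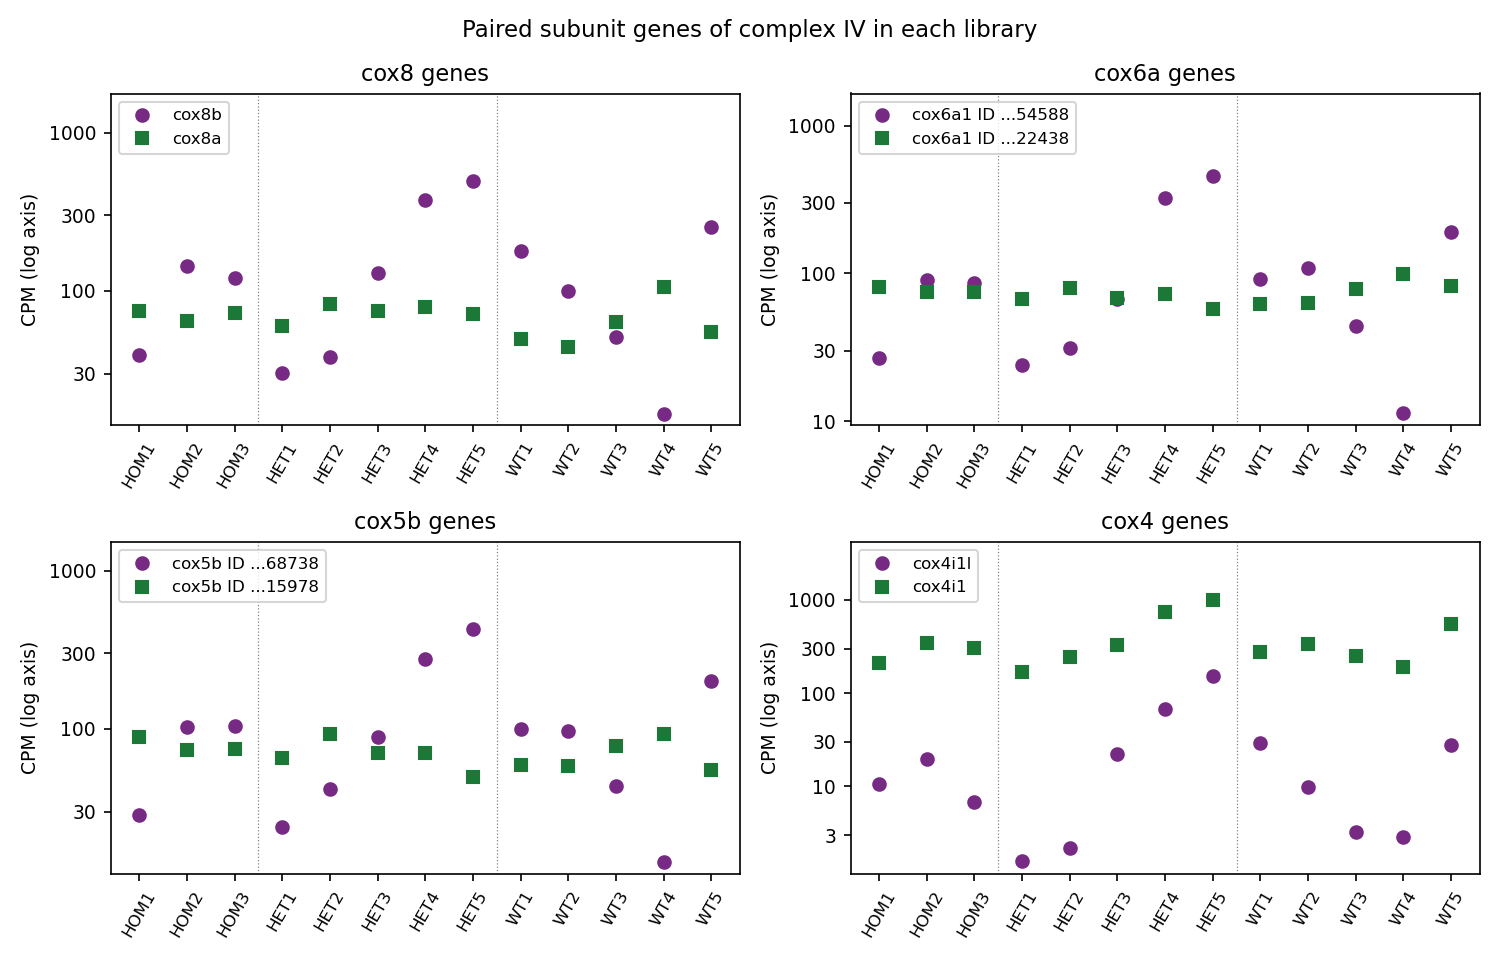
CPM (y axes, log scale) of paired complex IV genes in 13 libraries (x axes, HOM, HET and WT divided by dotted lines). Circles are the more variable gene of each pair and squares its partner, and rows that share a symbol carry the end of their identifier. For the cox8, cox6a and cox5b pairs the circles run from WT4 (lowest) to HET5 (highest) while the squares stay nearly level, and for the cox4 pair both move, the circles more.

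Markers of skeletal muscle stood beside these differences. The summed level of 44 skeletal muscle markers, of which 0 were at 0 in every library, was 9575 to 101620 CPM in HOM, 18746 to 95714 CPM in HET and 5206 to 129220 CPM in WT. WT4, lowest for cox8b, cox7a1 and the variable cox6a1 and cox5b rows, had the lowest skeletal muscle sum. The highest sums were in WT5 (129220 CPM), HOM2 (101620 CPM) and HET5 (95714 CPM), and HET2, whose members were low, had 75944 CPM. The 10 slow muscle markers, genes of the oxidative fibres, summed to 619, 1854 and 1733 CPM in HOM1 to HOM3, to 401, 240, 1760, 3749 and 10481 CPM in HET1 to HET5, and to 1916, 1790, 496, 473 and 3570 CPM in WT1 to WT5. HET5, HET4 and WT5 were the 3 highest libraries for the slow muscle markers, as they were for the members. The same 3 were also highest for the sums of assembly factors, citric acid cycle enzymes, mitochondrial ribosomal proteins and glycolytic genes described below. They were not the 3 highest for skeletal muscle, keratinocyte or liver markers. The 3 lowest for the slow muscle markers were HET2, HET1 and WT4. For the summed members they were HET1 (5128 CPM), WT4 (6143 CPM) and HOM1 (6337.5 CPM), with HET2 at 7005 CPM. The place of HOM1 depended on the scaling. With no scaling factors the 3 lowest for the members were HET1 (5383 CPM), WT4 (5950.5 CPM) and HET2 (6212 CPM), with HOM1 at 9080 CPM. The share of muscle in the members' differences was not tested. Fits with each list's mean as a covariate follow the comparison of HET with WT.

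No member passed the test for a difference between genotypes in any comparison. The test was edgeR's quasi-likelihood test over 19141 genes with Benjamini-Hochberg adjustment, and it called 0% of all genes and 0 of 92 members at an adjusted p under 0.05 in each of the 3 comparisons. At an unadjusted p under 0.05 there were also 0 members in each, beside 2.73% of all genes for HOM against WT, 5.5% for HET against WT and 2.74% for HOM against HET. DESeq2 called 0.207% of all genes for HOM over WT, 0.517% for HET over WT and 0.00379% for HOM over HET, and 0 members in each, also at an unadjusted p under 0.05. No member had groups without overlap, beside 1.18% of all genes for HOM against WT, 0.564% for HET against WT and 2.5% for HOM against HET. The HET and WT libraries are shared between comparisons, so the values that follow are not independent of each other.

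In HOM against WT the median member lay slightly below 0. Their log2 fold changes had a median of -0.12, beside -0.05 for all genes, and 12 of 92 lay above 0, beside 43.2% of all genes. By complex the median was -0.12 (I), -0.03 (II), -0.16 (III), -0.13 (IV) and -0.11 (V). This direction rested on single libraries, since the median was 0.12 with 74 members above 0 without HOM1, and 0.19 with 86 members above 0 without WT5. The 5 members with the smallest p were cox4i2 (0.46 ± 0.29), ndufa4l2 (1.06 ± 0.85), atp5if1a (-0.52 ± 0.47), ndufa8 (-0.67 ± 0.70) and cox5b (ENSDARG00000015978; 0.21 ± 0.24), given as edgeR log2 fold change ± SE, and all 5 had an adjusted p of 1.0. The widest of these, ndufa4l2 (ENSDARG00000103114), a gene raised by low oxygen in human cells, had 0.349 CPM in HOM1, 5.09 CPM in HOM2 and a level between these in HOM3, with 0.476, 0.607, 2.02, 4.22 and 5.29 CPM in HET and 1.63, 0.940, 0.529, 0.871 and 2.22 CPM in WT. In these scaled values its HOM libraries held both the lowest of all and the second highest. Leaving out 1 library at a time, its log2 fold change ran from 0.08 (without HOM2) to 1.64 (without HOM1). That of atp5if1a ran from -0.78 (without HOM2) to -0.20 (without WT5, and -0.25 without HOM1), and that of ndufa8 from -1.13 (without HOM3) to -0.26 (without WT5, and -0.33 without HOM1). For cox4i2 it was 0.26 without HOM2 and 0.31 without WT4. For cox5b (ENSDARG00000015978) it ran from 0.14 without WT5 to 0.34 without WT4.

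In HET against WT nearly every member had a higher fitted level, and 2 of 5 HET libraries set that direction. The median log2 fold change was 0.56, beside -0.04 for all genes, and 91 of 92 members lay above 0, beside 45.6% of all genes, the exception being cox6a1 (ENSDARG00000022438). By complex the median was 0.61 (I), 0.47 (II), 0.51 (III), 0.56 (IV) and 0.56 (V). Without HET5 the median was 0.17. Without HET4 and HET5 together it was -0.38 with 5 of 91 members above 0, beside 41.3% of all genes. Those 2 libraries were left out because the members were highest in them, so a lower median followed from that choice. That fit kept WT5, the highest WT library, and no fit left WT5 out as well. The members' averages against each gene's own mean were -0.93, -0.53 and 0.08 in HET1 to HET3. In WT1 to WT4 they were -0.15, 0.01, -0.57 and -0.80. Without WT5 alone the median log2 fold change was 0.90. The smallest p values belonged to sdhb (0.58 ± 0.32), ndufa2 (0.79 ± 0.44), ndufb3 (0.80 ± 0.47), ndufa12 (0.84 ± 0.49) and cox4i1l (1.76 ± 1.08), as edgeR log2 fold change ± SE, with adjusted p from 0.957 to 0.978. Without HET5 these were 0.32 for sdhb, 0.46 for ndufb3, 0.29 for ndufa12 and 0.67 for cox4i1l. The accessory complex I subunit ndufa12 (ENSDARG00000042469) shows how these arose, with 2.97, 2.91, 3.85, 11.6 and 17.6 CPM in HET against 3.08, 4.74, 3.35, 4.01 and 6.62 CPM in WT. Its log2 fold change without HET4 and HET5 was -0.43. For ndufa2 (ENSDARG00000021984), another accessory subunit, HET libraries had 16.8, 26.5, 52.6, 79.35 and 81.8 CPM, against 30.19, 27.7, 19.2, 18.6 and 52.6 CPM in WT, and its log2 fold change without those 2 libraries was 0.11.

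Fits with muscle markers as a covariate moved the members' medians in all 3 comparisons. In HOM against WT the median was 0.02 with 56 of 92 members above 0 with the skeletal muscle mean, and -0.0001 with 46 above 0 with the slow muscle mean. For HET against WT, with the skeletal muscle mean it was 0.23, and with the slow muscle mean, a covariate chosen after the data were seen, it was 0.43 with 91 of 92 members above 0. With the skeletal muscle mean, 0 of 92 members had an unadjusted p under 0.05 by edgeR in each of the 3 comparisons. In the slow muscle fit 38 of 92 members had an unadjusted p under 0.05 in HET against WT, beside 5.88% of all genes. In that fit 0 had an adjusted p under 0.05. The members rose and fell together, so such counts of members do not stand for separate events. In HOM against HET the median was -0.21 with the skeletal muscle and -0.41 with the slow muscle covariate, and 21 of 92 members had an unadjusted p under 0.05 in the slow muscle fit, beside 3.72% of all genes. With the slow muscle covariate and without HET4 and HET5 the median for HET against WT was 0.26, opposite in sign to the -0.38 of the same libraries without the covariate, 72 of 91 members lay above 0, and 6 of 91 had an unadjusted p under 0.05, beside 7.27% of all genes. For HOM against HET the median was then -0.24, against 0.27 without the covariate, and the count was 1 of 91, beside 6.07% of all genes.

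HOM against HET gave the converse pattern, with the same 5 HET libraries. The median log2 fold change was -0.66, beside -0.01 for all genes, and 5 of 92 members lay above 0, beside 48.8% of all genes. Those 5 were sdhd (ENSDARG00000055712), ndufa4l2, cox4i2 and the level rows of the cox6a1 and cox5b pairs. Without HET4 and HET5 the median was 0.27 with 87 of 91 members above 0, beside 53.2% of all genes. A higher median followed from leaving out the libraries in which the members were highest. Without HET5 alone the median was -0.27, and without HOM1 it was -0.40. The members with the smallest p were ndufa12 (-1.09 ± 0.59), ndufa8 (-1.33 ± 0.72), atp5if1a (-0.85 ± 0.48), uqcrb (-1.09 ± 0.64) and ndufv2 (-0.91 ± 0.57), as edgeR log2 fold change ± SE, each with an adjusted p of 1.0. Without HET5 these were -0.55 for ndufa12, -0.81 for ndufa8, -0.63 for uqcrb and -0.55 for ndufv2, and without HOM1 -0.56 for atp5if1a and -0.59 for ndufv2.

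**Figure D4:**
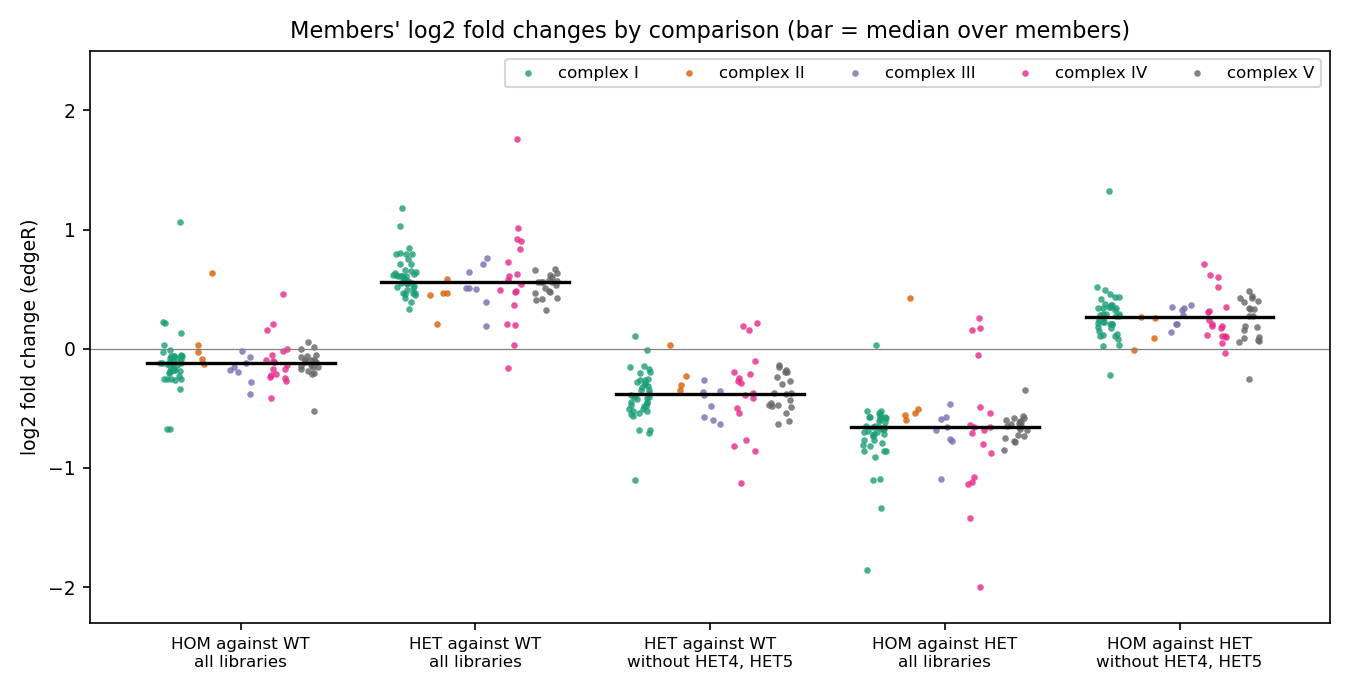
Fitted log2 fold change (y axis) of each member in HOM against WT, HET against WT and HOM against HET, with all 13 libraries and, for the comparisons that use HET, without HET4 and HET5. Points are genes coloured by complex and bars are medians over members. The bar for HET against WT is at 0.56 with all libraries and at -0.38 without the 2, and that for HOM against HET at -0.66 and 0.27.

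The mitochondrially encoded subunits were ordered differently across libraries from their nuclear partners. The 13 protein genes of the mitochondrial genome summed to 138680, 604060 and 733070 CPM in HOM1 to HOM3, to 433320, 462480, 669070, 369600 and 348570 CPM in HET1 to HET5, and to 243240, 199420, 267400, 453540 and 271220 CPM in WT1 to WT5. HET5 and HET4, highest for the nuclear members, were thus the lowest 2 HET libraries for the mitochondrial genes, while HOM3 and HET3, with the highest mitochondrial sums, were near the middle for the members. All 13 mitochondrial genes had log2 fold changes above 0 in each comparison, with medians of 0.79 for HOM over WT, 0.69 for HET over WT and 0.12 for HOM over HET. Without HET4 and HET5 the median was 0.89 for HET over WT, and for HOM over HET it was -0.08 with 3 of 13 above 0. None had an unadjusted p under 0.05 by edgeR, and the smallest adjusted p was 0.957. The mitochondrial sums depended on the scaling. They averaged 491940 CPM in HOM, 456610 CPM in HET and 286960 CPM in WT. With no scaling factors these means were 411880, 419330 and 312410 CPM, so that HOM no longer lay above HET. The highest library was 5.29 times the lowest with scaling factors and 2.84 times without. Of total counts, mitochondrial genes took 19.9% in HOM1 and 56.4% in HOM3.

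Within a library the ratio of both sets does not depend on the scaling between libraries. For each count of a nuclear member there were 21.9, 56.3 and 77.0 counts of mitochondrially encoded genes in HOM1 to HOM3, 84.5, 66.0, 67.9, 18.3 and 11.9 in HET1 to HET5, and 28.4, 20.0, 39.0, 73.8 and 15.9 in WT1 to WT5. The log2 ratio of nuclear to mitochondrial counts averaged -5.51 ± 0.95 in HOM (SD, n = 3), -5.26 ± 1.28 in HET (SD, n = 5) and -4.93 ± 0.87 in WT (SD, n = 5). The differences, -0.58 for HOM minus WT, -0.33 for HET minus WT and -0.25 for HOM minus HET, were smaller than the SD between libraries. Without HET4 and HET5 they were -1.25 for HET minus WT and 0.67 for HOM minus HET, the opposite sign. The first was larger than the pooled SD of 1.09 within HET and WT with all their libraries. However, HET4 and HET5 had the highest log2 ratios in HET (-4.19 and -3.58), and WT5, the highest in WT (-3.99), was kept. The -1.25 was therefore made larger by the choice of libraries and cannot be judged against that SD. Leaving out 1 library at a time, the differences ran from -1.11 (without HOM1) to -0.21 (without HOM3) for HOM minus WT, from -0.75 (without HET5) to -0.05 (without HET1) for HET minus WT, and from -0.78 (without HOM1) to 0.17 (without HET5) for HOM minus HET. The ratio was largest in complex IV, with 40.3 (HET5) to 292 (HET1) mitochondrial counts per nuclear count. It was smallest in complex V, with 2.11 (HET5) to 13.8 (HOM3). These counts come from 18 nuclear and 3 mitochondrial genes in complex IV and from 20 and 2 in complex V. They are not scaled to gene length. In complex I the ratio ran from 10.3 (HET5) to 74.6 (HET1) and in complex III from 13.8 (HET5) to 92.9 (HET3). The library with the fewest mitochondrial counts per nuclear count was HET5 in all 4 of these complexes.

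**Figure D5:**
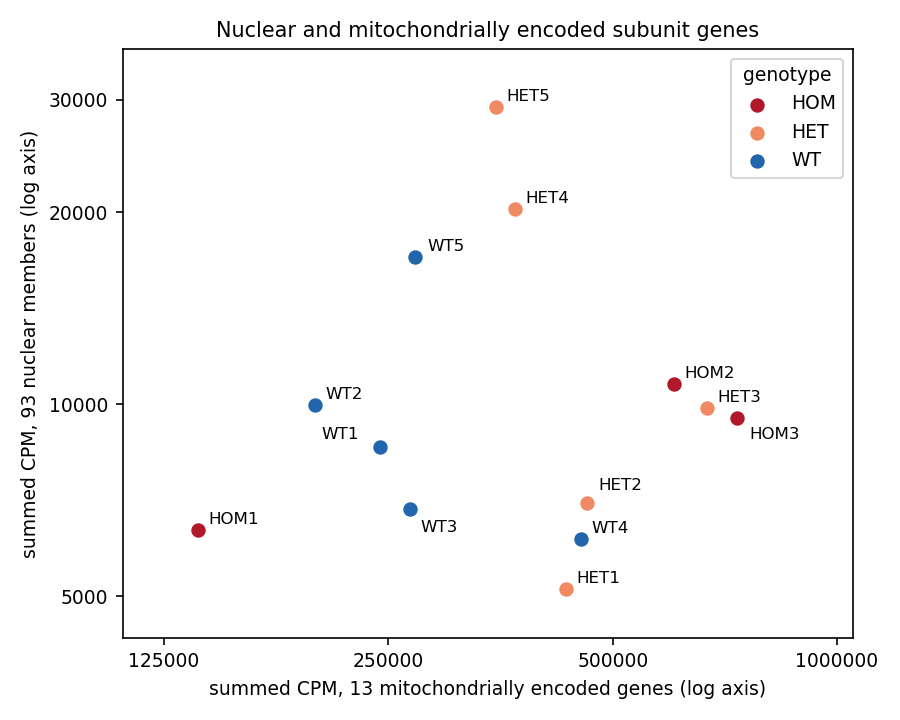
Summed CPM of 93 nuclear members (y axis, log scale) against summed CPM of 13 mitochondrially encoded protein genes (x axis, log scale) in 13 libraries, coloured by genotype. HET5, HET4 and WT5 are the highest on the y axis at middling x values, and HOM3, HET3 and HOM2 are the farthest right at 9514 to 10739 CPM of nuclear members.

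Genes that build and supply the complexes had medians of the same sign as those of the members in all 3 comparisons when all libraries were used. All genes tested had medians of -0.05 for HOM over WT, -0.04 for HET over WT and -0.01 for HOM over HET. Of these genes 43.2%, 45.6% and 48.8% lay above 0. Only in HET over WT, therefore, did the sign of the lists differ from that of all genes. Of 52 tested assembly factors, which help to put the complexes together, 15 lay above 0 for HOM over WT (median log2 fold change -0.10), 49 for HET over WT (0.32) and 2 for HOM over HET (-0.35). Of 73 proteins of the mitochondrial ribosome, which translates the mitochondrial messages, 15, 71 and 0 lay above 0 in these comparisons, with medians of -0.10, 0.24 and -0.34. For 19 enzymes of the citric acid cycle the counts were 1, 16 and 2 with medians of -0.21, 0.32 and -0.59, and for 26 genes of protein import into mitochondria they were 12, 20 and 4 with medians of -0.02, 0.21 and -0.28. The 22 tested regulators of mitochondrial gene expression had 5, 13 and 6 above 0 (medians -0.12, 0.05 and -0.16), and 31 glycolytic genes had 10, 19 and 9 (medians -0.18, 0.14 and -0.24). The 2 tested genes of the cytochrome c part of the chain outside the members had medians of -0.13, 0.59 and -0.73. When HET4 and HET5 were left out the medians for HET over WT were -0.07 for assembly factors, -0.19 for the mitochondrial ribosome, -0.47 for the citric acid cycle, -0.08 for import, -0.15 for regulators, -0.23 for glycolysis and -0.25 for the cytochrome c part. For HOM over HET they were -0.001, 0.08, 0.26, 0.02, -0.06, 0.19 and 0.11 for the same lists. None of these genes passed an adjusted p of 0.05 by edgeR in any comparison. The markers of slow muscle had medians of -0.40, 0.97 and -1.09 in the same 3 comparisons and those of skeletal muscle medians of -0.23, 0.33 and -0.43. The medians without that pair were, for HET over WT, -1.45 for slow muscle and -0.21 for skeletal muscle, and for HOM over HET 1.02 and -0.03.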

How the data were processed

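Total RNA of skin was sequenced from TruSeq RNA v2 libraries, a kit that does not mark strand. The submitters' processing notes name bcl2fastq 1.8.4, STAR 2.4.1d, featureCounts 1.4.6-p4 and the build GRCz10. The authors deposited whole-number counts per gene and a table labelled RPKM. The deposited RPKM values were handled as a score, because over 3854 genes with more than 200 counts in every library the gene length they imply varied by 31.0% (median CV) with each library's own total, and by 0.0025% when the 13 totals were used one after another from row to row. Only that length was used. Symbols came from a table of gene names (26269 IDs, 81.8%, matched).

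The counts were tested with edgeR 4.0.16 (robust quasi-likelihood, filterByExpr, TMM, all 13 samples, two-sided, Benjamini-Hochberg, threshold 0.05), with DESeq2 1.42.0 as alternative, in R 4.3.3. The fit was tested on simulated counts. Members, lists and tests were chosen with earlier results of these data known. Named genes were those called, or else the 5 smallest p per comparison, the highest 2 and lowest 1 levels per complex, the 5 largest SDs, the 5 members least and 3 most like the rest, and isoform pairs by name; atp5f1a, uqcrq and cox5a were added after their values were seen. Alternatives were other scalings, filters, groups in the fit, a muscle covariate, and leaving out each sample. Chosen after seeing the data were leaving out HET4 and HET5, the slow muscle covariate, and both together.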

Additional observations from a re-analysis of the deposited data

Results flagged for a closer look

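Among 118 groups of 5 libraries (members, sums and mitochondrial genes in HET and in WT), 7 had a library far from the other 4. Chance alone sets about 1 in 20 independent groups apart in this way. The groups here were not independent, since the members rose and fell together and the sums are made of them. The 7 groups therefore do not count as 7 separate events. For 6 of these 7 groups the library set apart was WT5. In WT5 the level was 351 CPM for atp5mc1 (119.9 to 143 CPM in the other 4 WT libraries), 199.7 CPM for atp5mc3 (78.2 to 98.5 CPM), 108 CPM for cox7a2l, which in mammals helps complexes III and IV to associate (45.2 to 60.4 CPM), 301 CPM for cox7c (57.2 to 120 CPM), 72.2 CPM for sdhc (33.6 to 43.3 CPM) and 181 CPM for uqcr10 (52.3 to 86.0 CPM). WT5 also had the highest skeletal muscle sum and by far the highest liver sum, and their part in these 6 levels was not tested. How far WT5 stood apart depended on the scaling, whose factors were 1.263, 1.237, 1.176, 0.9686 and 0.9379 in WT1 to WT5. Summed over all members, WT5 had 17012 CPM and WT2 9958.6 CPM, but 15956 and 12320 CPM with no scaling factors. The search for libraries set apart was not repeated with no scaling factors. The seventh was WT4, whose mitochondrially encoded genes summed to 453540 CPM, against 199420 to 271220 CPM in the other WT libraries. Its gap to the next library was 0.717 of the WT range, just over the cut-off of 0.71. With no scaling factors the sum was 439320 CPM in WT4 and 307260, 246700, 314380 and 254380 CPM in WT1, WT2, WT3 and WT5. HOM, with 3 libraries, was not examined in this way, and neither were the members not named by rule. Among the latter, atp5mea had 85.4 CPM in WT5 against 31.35 to 38.9 CPM in the other WT libraries.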

How the results depend on the processing

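Of the alternative values, 276 of the main results and 264 of the named genes kept their direction and side of the threshold or moved by less than the spread between libraries. Another 15 of the main results moved, and 6 of the named genes reversed. The kept values include changes of sign within that spread. The members' median in HOM against WT, for example, was -0.12 with all libraries and 0.19 without WT5. DESeq2 called 40, 105 and 1 genes for HOM over WT, HET over WT and HOM over HET where edgeR called 0, and neither called a member. Without HET4 and HET5 the median log2 fold change of the members was -0.38 for HET over WT and 0.27 for HOM over HET, and the sign turned for ndufb3 (-0.014), ndufa12 (-0.43) and cox4i1l (-0.77) in HET against WT and for ndufa12 (0.17), uqcrb (0.21) and ndufv2 (0.12) in HOM against HET, since the 2 highest libraries were gone. With no scaling factors the median of all genes shifted to -0.21 in HOM against WT and -0.29 in HET against WT, and that of the members to -0.35 and 0.34. With no scaling factors and mitochondrial genes left out of the totals the mean sums in HOM and WT were 3480 and 3618 CPM (complex I), 445 and 438 (II), 1076 and 1108 (III), 2790 and 2841 (IV), and 6900 and 7142 (V). These sums differ from the main ones in both respects, and the smaller totals raise them. Leaving out 1 library at a time, the members' median ran from -0.31 to 0.19 in HOM against WT, from 0.17 to 0.90 for HET over WT, and from -0.85 to -0.27 for HOM over HET, with 0 genes called throughout. No paired analysis was possible because the labels pair no libraries across genotypes. Group sizes of 3 and 5 and a median dispersion of 0.179 limit what these tests can call.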
